A study of Homo sapiens with 6 samples.

Results

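Transcripts of 10 intermediate filament genes were followed in Huh7, an established human liver cancer cell line, with and without a hairpin against TRIM15. The genes were taken by name from the deposited table, which lists 58735 genes. They were 6 keratins (KRT8, KRT18, KRT19, KRT7, KRT80 and KRT10), vimentin (VIM) and 3 lamins (LMNA, LMNB1 and LMNB2). The shTRIM15 group held 3 libraries of cells with a short hairpin RNA against TRIM15, labelled as a knockdown. The shcontrol group held 3 libraries of cells with a control hairpin. All 6 came from Huh7 cells grown in serum-supplemented RPMI-1640, and no other agent is named in the labels. The labels give neither the number of hairpins and cell pools nor whether replicates were separate cultures. The p-values therefore measure the spread between these libraries, which may be technical.

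Intermediate filaments are built from rod-shaped coiled-coil proteins. Keratins assemble only as a type I partner with a type II partner, and in hepatocytes the pair is keratin 18 (type I) with keratin 8 (type II), which protects the cell against mechanical and toxic injury. Keratins 7 and 19 are typical of bile duct cells, and vimentin is the filament of mesenchymal cells that many carcinoma lines also make. Lamins line the inner face of the nuclear envelope. The B-type lamins keep a lipid anchor, made at a CaaX box at the end of the protein, while lamin A loses it by cleavage and lamin C, a splice product of the same gene LMNA, never has it.

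The coding stretches below show a motif at the end of the rod and the CaaX box of prelamin A and the B-type lamins. Sequences were read from GENCODE 29 transcripts (GRCh38) and are written 5′ to 3′ on the coding strand. The first set is the end of the coiled-coil rod, with the codons of the helix termination motif in capitals, for 2 type I keratins and both B-type lamins.
KRT18: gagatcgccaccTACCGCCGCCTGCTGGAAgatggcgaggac
KRT19: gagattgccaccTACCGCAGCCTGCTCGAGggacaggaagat
LMNB1: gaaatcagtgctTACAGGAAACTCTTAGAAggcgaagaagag
LMNB2: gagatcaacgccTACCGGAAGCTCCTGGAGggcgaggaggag

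These stretches lie at chr12:52952296-52952337 (KRT18, plus strand), chr17:41523779-41523820 (KRT19, minus), chr5:126819099-126819140 (LMNB1, plus) and chr19:2434297-2434338 (LMNB2, minus), each within 1 coding exon. Over these 42 bases KRT18 and KRT19 were equal at 31, and LMNB1 and LMNB2 also at 31. KRT18 was equal to LMNB2 at 28 and to LMNB1 at 22. Identity did not always follow class, as the type II keratin KRT8 was equal to LMNB2 at 34. The motif as searched was not found in KRT80. The second set is the last 45 coding bases of prelamin A and the B-type lamins, where the capitals mark the last 4 codons before the stop codon, which form the CaaX box.
LMNA, prelamin A transcript: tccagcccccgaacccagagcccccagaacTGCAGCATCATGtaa
LMNB1: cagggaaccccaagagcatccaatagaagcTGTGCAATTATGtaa
LMNB2: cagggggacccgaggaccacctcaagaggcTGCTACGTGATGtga

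The prelamin A transcript encodes 664 residues and the lamin C transcript 572. The table has 1 value per gene, so the LMNA values below sum both products.

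Depth was 17332508 to 19556855 reads in the shTRIM15 libraries and 17715210 to 18217903 in the shcontrol libraries, recovered from the table. The table's unit, FPKM, divides the reads of a gene by the gene's length and a library size. The library size implied by the values differed from the recovered reads by 1.04 to 1.27% in shTRIM15 libraries. In shcontrol libraries it differed by -0.370 to -0.359%. FPKM in shTRIM15 libraries is therefore slightly lower against shcontrol than division by the recovered reads would give. The 10 genes took 0.756 to 0.765% of all reads in shTRIM15 libraries and 0.796 to 0.812% in shcontrol libraries. TRIM15, the targeted gene (chromosome 6), was at 3.23, 2.11 and 2.51 FPKM in shTRIM15 libraries, against 5.17, 5.09 and 4.88 FPKM in shcontrol libraries. It was 51.8% of control on average (limma log2 fold change -0.75, SE 0.106, adjusted p = 0.00416), with p = 0.1 by a two-sided exact permutation test, the lowest value that 3 against 3 libraries allow. The hepatocyte identity of the line was visible in ALB (albumin, 928 ± 10.3 FPKM in shTRIM15 and 899 ± 10.2 in shcontrol cells, SD, n = 3 each) and AFP (alpha-fetoprotein, 206 ± 3.02 and 199 ± 1.78 FPKM), while HP (haptoglobin) was below 0.5 FPKM in all libraries. All 12 endothelial markers and 10 of 13 immune markers were below 0.5 FPKM in every library, with CDH5, PLVAP, MS4A1 and FCGR3A at 0. The 3 other immune markers were CD14 (mean 13.73 FPKM in shTRIM15 and 13.97 in shcontrol libraries), LYZ (3.503 and 3.138) and CD3D (1.049 and 1.079).

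Genes were compared with limma on log2(FPKM + 1), which understates the change of low genes, for those with at least 0.5 FPKM in 3 or more libraries. Adjusted p-values are Benjamini-Hochberg values over all 14847 genes tested, and a gene was called below 0.05. Of the 10 filament genes 8 were tested; KRT7 and KRT80 were too low. The main hepatocyte keratin pair and vimentin fell and 2 lamins rose: 3 were lower (KRT8, KRT18, VIM), 2 were higher (LMNA, LMNB2), and KRT19, KRT10 and LMNB1 did not pass. The LMNA call ended without shTRIM15 replicate 1 (adjusted p = 0.0507) or replicate 2 (0.0502). Over all genes tested, 19% were called, 8.93% higher and 10.1% lower. Calls were more frequent among abundant genes: of 907 genes averaging 50 FPKM or more, 40.9% were called, and 5 of the 6 filament genes at that level were. The groups did not overlap in 7 of the 8 tested members and in 37.8% of all genes tested. All changes were small; the log2 fold changes ran from -0.19 (KRT18) to 0.21 (LMNB2), against a median absolute value of 0.22 among called genes. In bulk RNA, fewer cells of a kind and less RNA per cell cannot be told apart.

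**Figure D1:**
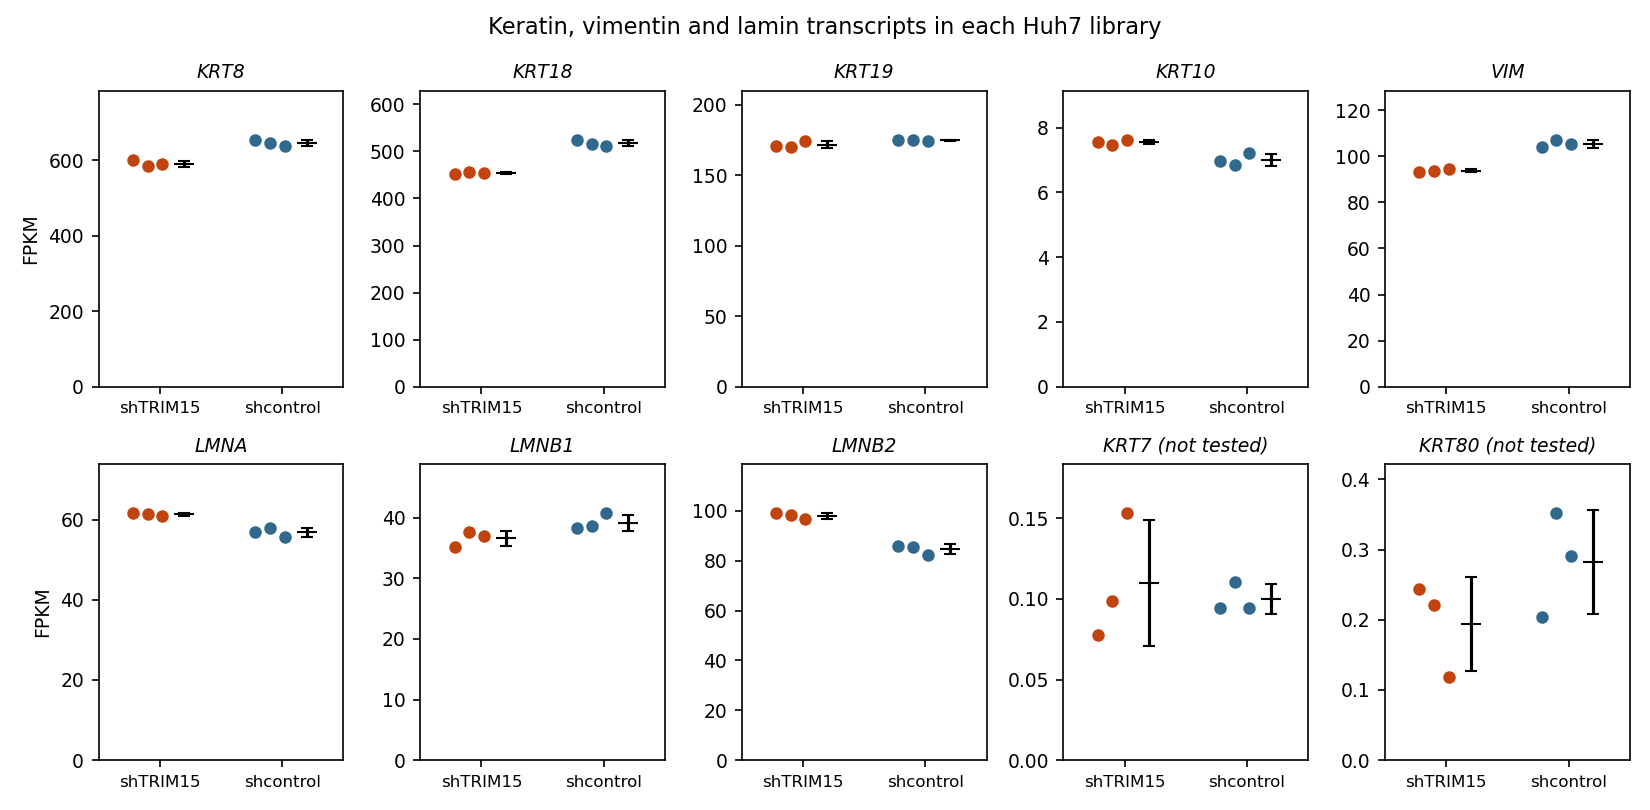
FPKM of each filament gene in each library (y axis from 0, own scale per gene), with points for the 3 shTRIM15 libraries at left and the 3 shcontrol libraries at right; bars are mean ± SD. KRT8, KRT18 and VIM sit lower and LMNA and LMNB2 higher in all shTRIM15 libraries, whereas KRT19 overlaps.

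KRT8 (ENSG00000170421, chromosome 12, 52897187 to 52949954, minus strand), the type II partner, was the most abundant of the 10. It had 599, 584 and 589 FPKM in shTRIM15 libraries, against 653, 646 and 637 FPKM in shcontrol libraries. Each shTRIM15 library was below each shcontrol library. The mean fell by 8.51% (log2 fold change -0.13, SE 0.0175, limma adjusted p = 0.00369). Under quantile scaling, which forces all libraries to 1 distribution of values, the fall shrank to -0.06 on the log2 scale and was still called (adjusted p = 0.0137).

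KRT18 (ENSG00000111057, chromosome 12, 52948871 to 52952901, plus strand), the type I partner, fell more. Its levels were 453, 456 and 455 FPKM in shTRIM15 libraries, against 525, 516 and 512 FPKM in shcontrol libraries. The groups did not overlap, and the mean fell by 12.2% (log2 fold change -0.19, SE 0.0158, limma adjusted p = 0.000639). The spread of the shTRIM15 libraries was below counting error alone, as given further below, so it is a poor measure of the gap. The 2 genes are neighbours on opposite strands and share 525 exon bases, 16.3% of the KRT18 length and 7.63% of the KRT8 length. The library kit marks strand, but the sources used here do not say whether counting used strand.

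The ratio of KRT18 to KRT8 within a library is unaffected by any scaling that multiplies a library by 1 factor; quantile scaling is not of that kind, and under it KRT8 was at -0.06 and KRT18 at -0.15 on the log2 scale. It was 0.755, 0.780 and 0.773 in shTRIM15 libraries, against 0.803, 0.7998 and 0.803 in shcontrol libraries. The ratio was lower in every shTRIM15 library, by 0.06 on the log2 scale, and p was 0.1 by two-sided exact permutation, the smallest possible. Both values rest on the table's gene lengths, which join the exons of all annotated transcripts. For KRT8 that length is 6881 bases, 3.66 times its principal transcript of 1882 bases, and for KRT18 it is 3218 bases, 2.06 times the principal 1562. With principal transcript lengths the mean ratio was 0.434 in shTRIM15 and 0.452 in shcontrol libraries. The level of one keratin relative to the other thus depends on the length chosen. A change of length multiplies every ratio by 1 constant, so the log2 difference between groups stays the same by construction.

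Both keratins have many processed pseudogenes. The table names 50 rows as KRT8 pseudogenes and 67 as KRT18 pseudogenes, of which 24 and 21 had any reads. Their reads added up to 0.322 to 0.333% of KRT8 reads in shTRIM15 and 0.273 to 0.317% in shcontrol libraries. For KRT18 the share was 0.0619 to 0.128% in shTRIM15 and 0.0750 to 0.0937% in shcontrol libraries. How reads that match several copies were assigned is not stated. Adding all these reads to the parent genes left log2 fold changes of -0.13 for KRT8 and -0.19 for KRT18.

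KRT19 (ENSG00000171345, chromosome 17, 41523617 to 41528308), a type I keratin of bile duct and progenitor cells, had 171, 170.1 and 175 FPKM in shTRIM15 libraries, against 175, 175 and 174 FPKM in shcontrol libraries. The highest shTRIM15 library lay within the shcontrol range. The log2 fold change was -0.03 with a 95% interval of -0.07 to 0.02 (limma adjusted p = 0.372). The interval does not reach the estimate for either KRT8 or KRT18, but the difference between the keratins' changes was not tested.

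KRT10 (ENSG00000186395, chromosome 17, 40818117 to 40822595), a type I keratin best known from the upper layers of the epidermis, had 7.57, 7.48 and 7.63 FPKM in shTRIM15 libraries, against 6.97, 6.84 and 7.22 FPKM in shcontrol libraries. All shTRIM15 libraries were higher, but the gene rests on 259 to 317 reads per library and did not pass (log2 fold change 0.10, SE 0.0341, limma adjusted p = 0.0996). By limma voom, run on the recovered read counts, KRT10 was at 0.11 with a larger SE of 0.0885 (adjusted p = 0.421). It shares 56 exon bases with TMEM99 on the opposite strand.

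KRT7 (chromosome 12), the type II partner found in bile duct cells, had 6, 8 and 11 reads in shTRIM15 libraries and 7, 8 and 7 reads in shcontrol libraries. Over each group this was 25 reads (95% exact Poisson interval 16.2 to 36.9, counting error only) and 22 reads (13.8 to 33.3). The groups could not be told apart at this depth.

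KRT80 (chromosome 12), a type II keratin, had 20, 19 and 9 reads in shTRIM15 libraries and 16, 27 and 23 reads in shcontrol libraries. The sums were 48 reads (35.4 to 63.6) and 66 reads (51.04 to 84.0), and the groups overlapped. Without the filter on low values, limma gave a log2 fold change of 0.01 for KRT7 (adjusted p = 0.891) and -0.10 for KRT80 (adjusted p = 0.593).

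Summed over the 55 protein-coding keratin genes in the table, keratin FPKM was 1231 ± 6.93 in shTRIM15 and 1352 ± 14.5 in shcontrol libraries (SD, n = 3 each), a change of -8.97%. KRT8, KRT18 and KRT19 made up 98.8 to 98.9% of this sum in shTRIM15 and 98.9 to 99.0% in shcontrol libraries. KRT18 alone was 36.9 ± 0.329% in shTRIM15 and 38.3 ± 0.0914% in shcontrol libraries, and KRT19 was 13.96 ± 0.192% and 12.9 ± 0.110%. KRT8 was 48.0% in shTRIM15 and 47.7% in shcontrol libraries. The sum and these shares rest on the table's gene lengths and depend on the length chosen. On principal transcript lengths KRT8, KRT18 and KRT19 averaged 2159, 936 and 289 FPKM in shTRIM15 libraries. In shcontrol libraries those means were 2360, 1066 and 294 FPKM. Of the 55 keratin genes, 37 had no read in any library, 13 had some reads but stayed under the filter, and 5 were tested.

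**Figure D2:**
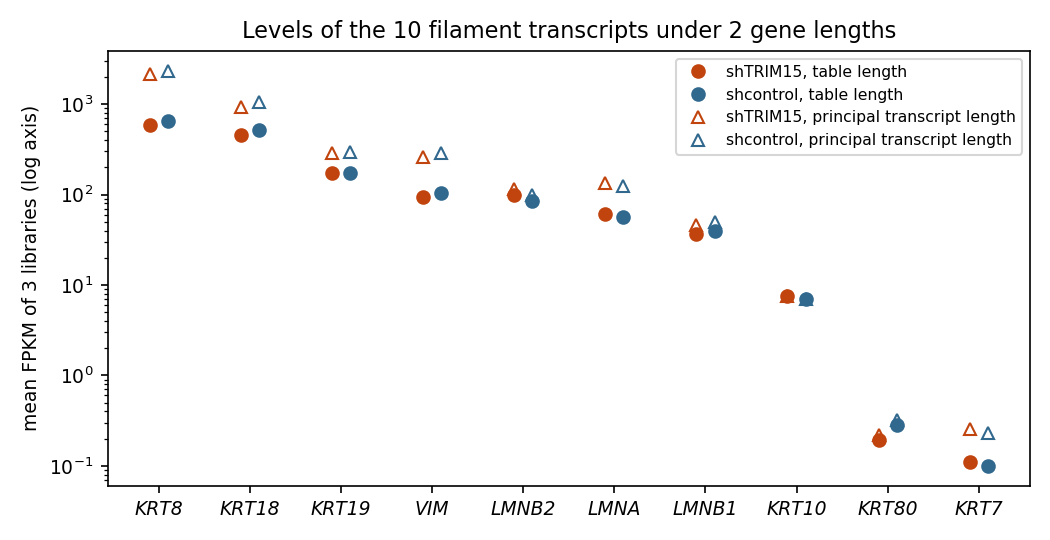
Mean FPKM of the 10 filament genes on a log axis, shTRIM15 (left of each pair) and shcontrol (right), with the table's gene length (filled circles) and rescaled to the principal transcript length (open triangles). KRT8 is highest on either length, at 591 FPKM in shTRIM15 and 645 FPKM in shcontrol cells on the table's length, and LMNA and LMNB2 change places.

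VIM (ENSG00000026025, chromosome 10, 17228259 to 17237593, plus strand), the mesenchymal filament, had 93.1, 93.6 and 94.3 FPKM in shTRIM15 libraries, against 104, 107 and 105 FPKM in shcontrol libraries. The groups did not overlap and the mean fell by 11.2% (log2 fold change -0.17, SE 0.0191, limma adjusted p = 0.00178). Its antisense neighbour VIM-AS1 shares 641 exon bases with it, 12.4% of the VIM length, and had 16 to 50 reads in shTRIM15 and 29 to 40 in shcontrol libraries, against 8541 to 9868 reads for VIM. Of 12 fibroblast and stellate cell markers 5 were tested, and 2 of them were lower beside VIM, the matrix genes LUM, encoding lumican, and COL1A2, encoding a collagen I chain. COL1A1, PDGFRA and RGS5 did not pass, and the median log2 fold change of the 5 was -0.01. The summed level of the 12 markers was 58.1 to 60.7 FPKM in shTRIM15 and 65.2 to 68.8 FPKM in shcontrol libraries. Lumican made up most of this sum (50.7 ± 1.25 FPKM in shTRIM15 and 57.6 ± 1.95 in shcontrol libraries, log2 fold change -0.18, limma adjusted p = 0.00931). The other defining markers DCN, THY1 and ACTA2 were below 0.05 FPKM in all libraries, THY1 at 0, and 7 of the 12 were below 0.5. Their part in the VIM result was not tested. The COL1A2 call (-0.18, adjusted p = 0.0365) ended without any 1 of the 6 libraries (adjusted p = 0.0643 to 0.0975).

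LMNB2 (ENSG00000176619, chromosome 19, 2427638 to 2456996, minus strand), which encodes lamin B2, had the largest log2 fold change of the 8 tested. It had 98.95, 98.4 and 96.7 FPKM in shTRIM15 libraries, against 85.9, 85.4 and 82.3 FPKM in shcontrol libraries. All shTRIM15 libraries were higher, and the mean was 116% of control (log2 fold change 0.21, SE 0.0230, limma adjusted p = 0.0016). Its exons share 257 bases, 4.73% of its length, with TIMM13 on the same strand. TIMM13, a chaperone gene of mitochondrial import, was higher as well, with 49.5 ± 0.703 FPKM in shTRIM15 and 42.3 ± 1.501 in shcontrol libraries (log2 fold change 0.22, adjusted p = 0.00352). Strand cannot separate reads in the shared stretch, and its part in the LMNB2 value was not tested.

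LMNA (ENSG00000160789, chromosome 1, 156082573 to 156140089, plus strand), which encodes lamins A and C, had 61.6, 61.4 and 60.9 FPKM in shTRIM15 libraries, against 56.9, 57.8 and 55.7 FPKM in shcontrol libraries. The groups did not overlap and the mean was 108% of control (log2 fold change 0.11, SE 0.0210, limma adjusted p = 0.014). Beside the shTRIM15 libraries named above, without either of which the adjusted p was 0.0502 to 0.0507, the call also ended without a variance trend (0.0703).

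LMNB1 (ENSG00000113368, chromosome 5, 126776623 to 126837020, plus strand), which encodes lamin B1, was the lamin that did not pass. Its values were 35.1, 37.6 and 36.9 FPKM in shTRIM15 libraries, against 38.2, 38.5 and 40.7 FPKM in shcontrol libraries. The groups did not overlap, but the gap between them was smaller than the spread within each, and the fit gave no call (log2 fold change -0.10, 95% interval -0.18 to -0.01, limma adjusted p = 0.112). By limma voom, run on the recovered read counts, it was called lower (-0.10, adjusted p = 0.0269).

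Ratios between lamins set these against each other inside a library. LMNB2 to LMNB1 was 2.82, 2.62 and 2.62 in shTRIM15 libraries, against 2.25, 2.22 and 2.02 in shcontrol libraries. LMNA to LMNB1 was 1.75, 1.63 and 1.65 in shTRIM15 libraries, against 1.49, 1.5001 and 1.37 in shcontrol libraries. Both ratios were higher in every shTRIM15 library, by 0.31 and 0.21 on the log2 scale (two-sided exact permutation p = 0.1 each, the smallest possible). This separation was fixed by the values above, where LMNB2 and LMNA were higher and LMNB1 lower in every shTRIM15 library. The ratios and their p-values therefore restate the single-gene values and are no separate test. LMNB1 was 18.7 ± 0.623% of summed lamin FPKM in shTRIM15 and 21.7 ± 0.931% in shcontrol libraries, LMNB2 was 50.04 ± 0.473% and 46.8 ± 0.718%, and LMNA was 31.3 ± 0.189% and 31.5 ± 0.310%. The summed lamin level was 196 ± 1.46 FPKM in shTRIM15 and 181 ± 1.59 in shcontrol libraries. On principal transcript lengths LMNA stood above LMNB2, at 134 against 114 FPKM in shTRIM15 cells and 124 against 98.3 FPKM in shcontrol cells.

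**Figure D3:**
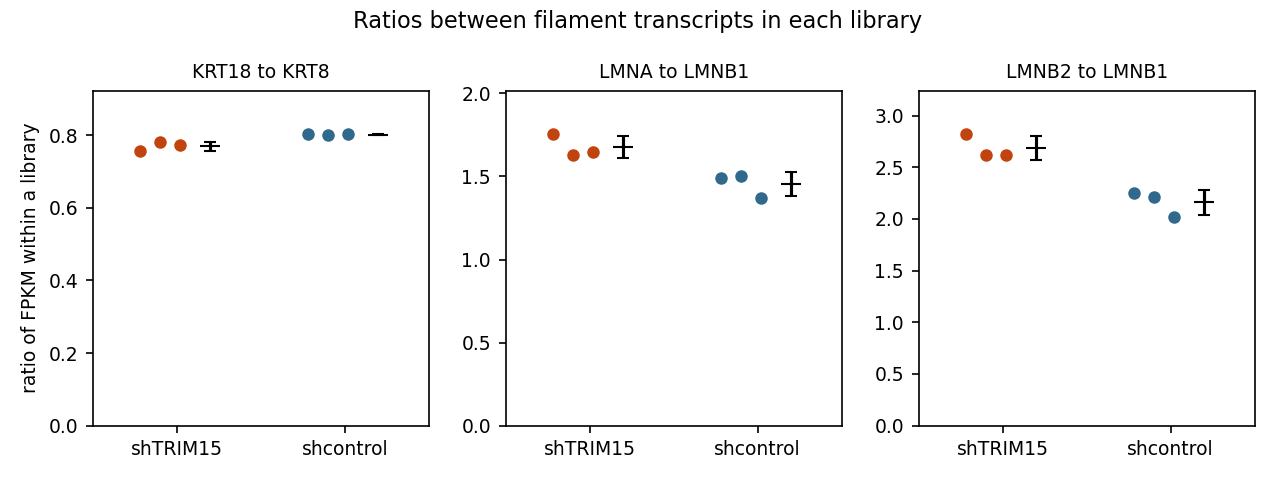
Ratio of FPKM between 2 filament genes within each library (y axes from 0), shTRIM15 at left and shcontrol at right, with mean ± SD of 3 libraries. KRT18 to KRT8 is lower (mean 0.770 in shTRIM15 and 0.802 in shcontrol) and both lamin ratios are higher in all shTRIM15 libraries.

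The order of the levels was KRT8, KRT18, KRT19, VIM, LMNB2, LMNA, LMNB1, KRT10, KRT80 and KRT7 in shcontrol libraries. In shTRIM15 libraries LMNB2 (98.0 ± 1.17 FPKM) stood above VIM (93.7 ± 0.623 FPKM), whereas in shcontrol libraries it stood below (84.5 ± 1.97 and 105 ± 1.65 FPKM). That crossing holds for the table's gene lengths: on principal transcript lengths LMNB2 was below VIM in both groups, at 114 and 259 FPKM in shTRIM15 cells and at 98.3 and 291 FPKM in shcontrol cells. On the table's lengths only KRT80 and KRT7 overlapped as neighbours in this order, and only in shTRIM15 libraries (0.118 to 0.244 and 0.0777 to 0.153 FPKM). On principal transcript lengths KRT19 and VIM were close in shcontrol libraries (294 ± 0.805 and 291 ± 4.57 FPKM, SD). In shTRIM15 libraries they were at 289 ± 4.06 and 259 ± 1.72 FPKM. Within groups the tested members varied by a coefficient of variation of 0.274 to 3.58%, where counting alone gives 0.358 to 5.91%. KRT18 in shTRIM15 libraries varied by 0.356%, less than the 0.591% of counting error.

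**Figure D4:**
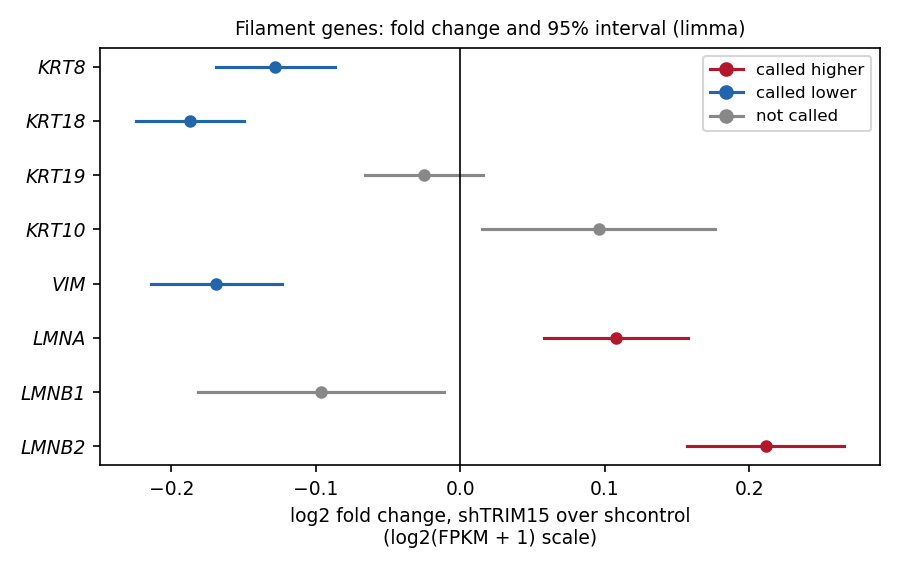
Log2 fold change of the 8 tested filament genes, shTRIM15 over shcontrol, with 95% intervals from limma (x axis, log2(FPKM + 1) scale). KRT8, KRT18 and VIM are called lower and LMNA and LMNB2 higher. The intervals of KRT10 and LMNB1 leave out 0 but their limma adjusted p-values are 0.0996 and 0.112. By limma voom on recovered reads the adjusted p-values are 0.421 for KRT10 (SE 0.0885) and 0.0269 for LMNB1.

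Partners of the lamins in the inner nuclear membrane changed in both directions. Of 17 tested genes of the lamina and inner membrane, 4 were lower and 2 higher, with a median log2 fold change of -0.03 against 0.00143 over all genes tested. Over all genes tested 10.1% were called lower and 8.93% higher, shares to set beside the small lists below as well. TMPO, which encodes the LAP2 proteins that tether lamins and chromatin, fell to 15.2 ± 0.210 FPKM in shTRIM15 libraries, against 19.6 ± 0.493 in shcontrol libraries (log2 fold change -0.35, limma adjusted p = 0.000611). LEMD3, an inner membrane protein that binds lamins and SMADs, fell to 9.54 ± 0.346 FPKM, against 11.6 ± 0.393 in shcontrol libraries (-0.26, adjusted p = 0.00553). TOR1A, the torsin ATPase of the nuclear envelope lumen, fell as well (-0.25, adjusted p = 0.00988).

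SUN2, which links lamins to the cytoskeleton through nesprins, rose to 23.3 ± 0.114 FPKM in shTRIM15 libraries, against 20.7 ± 0.635 in shcontrol libraries (0.16, adjusted p = 0.00938). Its paralog SUN1 fell (-0.12, adjusted p = 0.027) and TMEM43, an emerin-binding membrane protein, rose (0.13, adjusted p = 0.028); both stood outside the rule for named genes and were chosen after their values were seen. The SUN1 call ended without any 1 of the 6 libraries (adjusted p = 0.0528 to 0.0878), and that of TMEM43 without any 1 library but shTRIM15 replicate 3 (0.0615 to 0.0848). The lamin B receptor LBR was at 34.6 ± 0.904 FPKM in shTRIM15 and 35.03 ± 0.981 in shcontrol libraries (adjusted p = 0.727), and emerin (EMD) at 31.7 ± 0.923 and 29.8 ± 2.52 (adjusted p = 0.350).

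Enzymes that act on the CaaX box printed above also split. Of 5 tested, 2 were higher and 1 lower, with a median of -0.04. ICMT, which methylates the farnesylated cysteine, rose to 36.1 ± 1.28 FPKM in shTRIM15 libraries, against 31.9 ± 0.222 in shcontrol libraries (0.17, limma adjusted p = 0.00892). RCE1, which removes the last residues of the box, rose (0.16, adjusted p = 0.0226), a call that ended without any shTRIM15 replicate or shcontrol replicate 2 (0.0539 to 0.073). ZMPSTE24, the protease that cuts prelamin A to mature lamin A, fell to 21.3 ± 1.57 FPKM in shTRIM15 libraries, against 24.5 ± 0.397 in shcontrol libraries (-0.20, adjusted p = 0.0363). That call ended without shTRIM15 replicate 1 or 3 or any shcontrol replicate (0.0766 to 0.102). The farnesyltransferase subunits did not pass, with log2 fold changes of -0.04 for FNTA and -0.18 for FNTB.

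**Figure D5:**
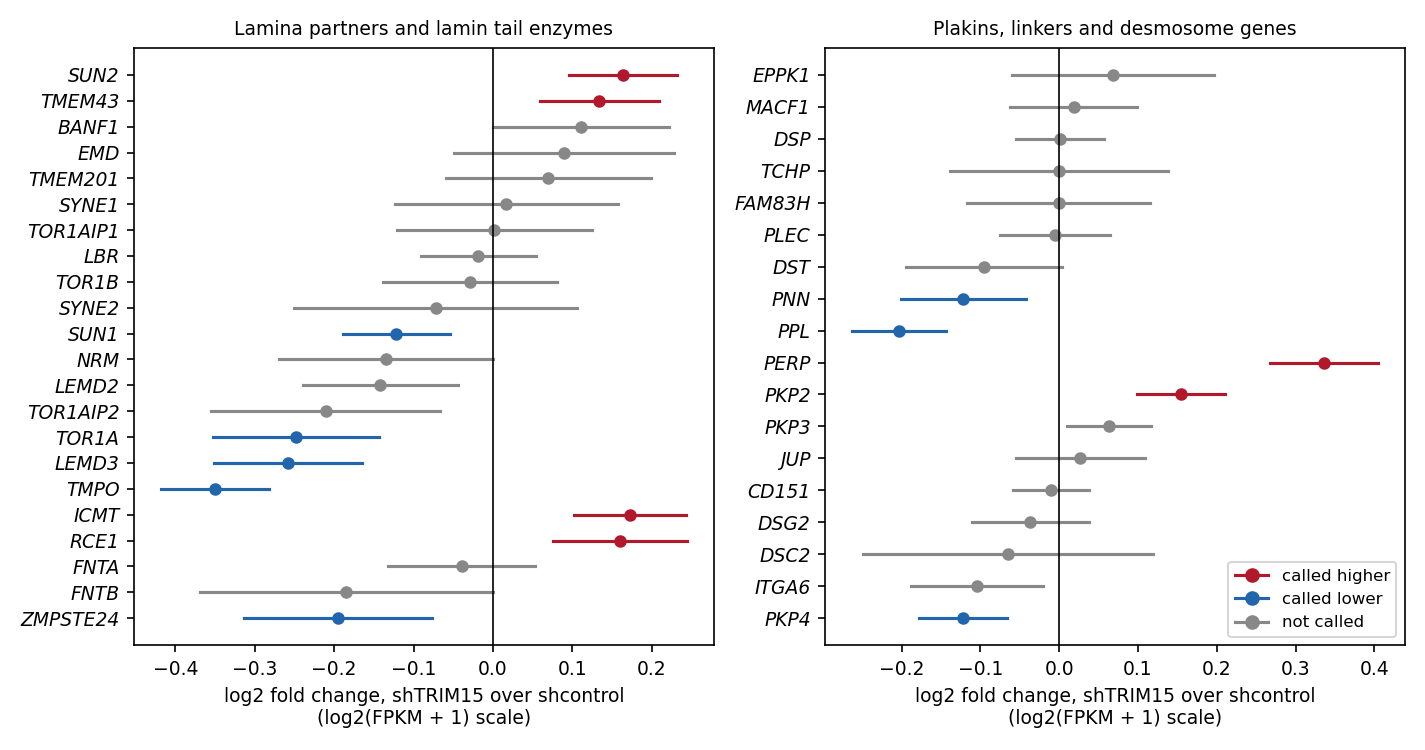
Log2 fold change with 95% interval (x axis, log2(FPKM + 1) scale, shTRIM15 over shcontrol) of tested lamina partners and lamin tail enzymes (left) and of plakins, linkers and desmosome genes (right). TMPO is lowest at -0.35 and PERP highest at 0.34.

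Plakins and other genes listed as filament linkers mostly did not pass, like most genes tested, of which 19% were called. Of 9 tested plakins and linkers, 2 were lower and 0 higher by limma, with a median of -0.000873; at an unadjusted p under 0.05 there were 0 higher and 2 lower, and limma voom called 0 higher and 3 lower. PPL, the desmosomal plakin periplakin, fell to 19.5 ± 0.297 FPKM in shTRIM15 libraries, against 22.6 ± 0.337 in shcontrol libraries (-0.20, adjusted p = 0.00269). PNN, pinin, fell (-0.12, adjusted p = 0.0454), but this ended without shTRIM15 replicate 1 or 3 or any shcontrol replicate (0.0692 to 0.125). The main cytolinkers were nearly level: plectin (PLEC) had 12.9 ± 0.327 FPKM in shTRIM15 and 13.0 ± 0.0891 in shcontrol libraries, and desmoplakin (DSP) 24.9 ± 0.302 and 24.9 ± 0.321, with 95% intervals of the log2 fold change of -0.08 to 0.06 and -0.05 to 0.06.

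Among 9 tested desmosome and hemidesmosome genes, 2 were higher and 1 lower, with a median of -0.01. PERP, a desmosomal membrane protein and p53 target, rose to 63.1 ± 0.989 FPKM in shTRIM15 libraries, against 49.8 ± 1.68 in shcontrol libraries (0.34, limma adjusted p = 0.000708). The plakophilin PKP2, which links desmoplakin to desmosomal cadherins, rose to 17.3 ± 0.0296 FPKM, against 15.5 ± 0.0637 in shcontrol libraries (0.15, adjusted p = 0.00571). PKP4 fell (-0.12, adjusted p = 0.0137), a call that ended without shTRIM15 replicate 3 (0.0507) and with replicate number as a block (0.0548).

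Of 49 other intermediate filament genes, 45 were below 0.5 FPKM in all libraries, 29 of them at 0, and 4 were tested. SYNM, the large filament protein synemin that copolymerizes with vimentin, fell to 6.77 ± 0.298 FPKM in shTRIM15 libraries, against 8.40 ± 0.311 in shcontrol libraries (-0.27, limma adjusted p = 0.00673). NES, nestin, which also copolymerizes with vimentin, was at 74.0 ± 0.964 FPKM in shTRIM15 and 69.6 ± 0.758 in shcontrol libraries (0.09, adjusted p = 0.0243). The nestin call ended without shTRIM15 replicate 2 or 3 or shcontrol replicate 1 or 2 (0.0594 to 0.0839). The type I keratin KRT23 was at 5.62 ± 0.692 FPKM in shTRIM15 and 6.26 ± 0.293 in shcontrol libraries (adjusted p = 0.279). The median of the 4 was -0.11.

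Other epithelial and mesenchymal genes were counted beside KRT8, KRT18 and VIM. Of 23 tested epithelial junction and identity genes, 1 was higher and 1 lower, with a median of -0.03. At an unadjusted p under 0.05 the counts were 3 higher and 4 lower, and limma voom called 3 higher and 5 lower. CLDN12, a claudin, fell to 5.85 ± 0.374 FPKM in shTRIM15 libraries, against 8.07 ± 0.390 in shcontrol libraries (-0.41, limma adjusted p = 0.0034). CTNND1, p120 catenin, rose (0.09, adjusted p = 0.0249), but not without any shTRIM15 replicate or shcontrol replicate 1 or 3 (0.0517 to 0.0838). E-cadherin (CDH1) was at 20.3 ± 0.359 FPKM in shTRIM15 and 18.7 ± 0.675 in shcontrol libraries (adjusted p = 0.0629).

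Of 12 tested mesenchymal genes, 1 was lower and 0 were higher by limma, with a median of -0.01; at an unadjusted p under 0.05 there were 0 higher and 3 lower, and limma voom called 1 higher and 2 lower. CDH2, N-cadherin, was the one called lower (-0.11, adjusted p = 0.039), a call that ended without any 1 library but shTRIM15 replicate 2 (0.0658 to 0.105). Bile duct markers, the setting in which KRT19 and KRT7 are usually read, had 1 higher and 2 lower of 7 tested, with a median of -0.10. The transcription factor SOX9 rose to 46.0 ± 0.135 FPKM in shTRIM15 libraries, against 39.3 ± 0.396 in shcontrol libraries (0.22, limma adjusted p = 0.000745). The surface protein CD24 (-0.13, adjusted p = 0.00238) and the anion exchanger SLC4A2 (-0.17, adjusted p = 0.00695) fell. Hepatocyte markers had 0 higher and 1 lower of 8 by limma and a median of 0.02, with 3 higher at an unadjusted p under 0.05 and 3 higher by limma voom; transferrin (TF, -0.09, adjusted p = 0.0248) was the lower one, and its call ended without any 1 library but shcontrol replicate 1 (0.0594 to 0.0849). Fibroblast and stellate markers had 0 higher and 2 lower of 5 tested and a median of -0.01, and of the 3 immune markers tested 0 were called by limma. In both lists the number higher was 0 also at an unadjusted p under 0.05 and by limma voom, as was the number of immune markers lower.

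The genes whose log2(FPKM + 1) values followed a member most closely over the 6 libraries, among 4544 others at 10 FPKM or more, were BCAS2, TMEM109 and TMSB10 for KRT8 (Pearson's r 0.996, 0.994 and 0.993). For VIM they were TXLNG, SRSF10 and NUS1 (0.998, 0.997 and 0.997), and for LMNA they were GPATCH3, B4GALT5 and MYO9B (0.998, 0.997 and 0.997). Each r includes the difference between the groups and was picked as the highest of many.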

How the data were processed

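The authors deposited 1 table of FPKM values per gene, with gene names, positions and lengths, per the file headers. The submitters' processing notes name the mouse build mm10, but all 58735 rows equal human GENCODE 29 genes on GRCh38 in identifier, start, end and strand. Aligner, counting and strand use are not given in the sources used here. FPKM times gene length gave whole reads for 100% of values (tolerance 0.01). Groups were compared with limma 3.58.1 in R 4.3.3 on log2(FPKM + 1), with moderated variances and a mean-variance trend, for the 14847 genes with at least 0.5 FPKM in 3 libraries. Ratios were compared by two-sided exact permutation with SciPy 1.17.1. The fit was tested on simulated data. Named genes were the members, TRIM15, up to 4 called genes per list with the smallest adjusted p, the 3 genes most like KRT8, VIM and LMNA, and antisense partners and pseudogenes of members. All other genes named with values (uncalled list genes such as LBR, PLEC, CDH1 and ALB, and TIMM13, SUN1 and TMEM43) stood outside this rule and were chosen after their values were seen. Members and lists were chosen with earlier results of these data known. Alternatives were 2 pseudocounts, 2 filters, 2 scalings, no variance trend, a replicate block, limma voom, added pseudogene reads and each library left out; principal transcript lengths were added after seeing the data. Chromosomes and lengths come from GENCODE 29. The labels do not say whether replicate numbers pair the libraries, and the main fit did not pair them. Some coding stretches of members are not reported here.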

Additional observations from a re-analysis of the deposited data

How the results depend on the processing

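All 8 tested members kept their direction under all 16 alternatives run, and KRT8, KRT18, VIM and LMNB2 were called under each. The number of members higher was 1 in place of 2 without a variance trend and 1 to 2 with 1 library left out; the number lower was 3, or 4 with limma voom. Over all genes 2824 were called, 1888 with no filter, 4066 with limma voom, and 1771 (without shTRIM15 replicate 3) to 2345 with 1 library left out. TRIM15 was lower throughout, with a log2 fold change of -0.87 to -0.65 with 1 library left out. The ratios with 1 library left out differed by -0.07 to -0.05 (KRT18 to KRT8), 0.17 to 0.23 (LMNA to LMNB1) and 0.27 to 0.34 (LMNB2 to LMNB1) on the log2 scale. With replicate number as a block 1913 genes were called, TRIM15 stayed at -0.75, the members stayed at 2 higher and 3 lower (LMNA limma adjusted p = 0.0428), and 10 calls of other named genes ended. Without a variance trend 10 calls of named genes ended, LMNA among them. With no filter on low values 6 ended, and with quantile scaling 1. Within replicate pairs, exact sign-flip permutation of each ratio gave p = 0.25, the smallest possible. For the lamin ratios this too was fixed by the separation of the single genes. Deviations of same-numbered libraries from their group means correlated by 0.00862 to 0.0133 over all genes tested. The labels do not say whether same-numbered libraries shared a culture or a day. These correlations cannot settle it, since a shared effect on few genes would hardly move them. Of 384 list counts under the alternatives, 79 moved by over 1.5 times or to or from 0. The 384 include counts of the endothelial and immune lists, which were 0 in the main fit and had little room to move. KRT7 and KRT80 were limited by 6 to 27 reads per library.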
